A study of Mus musculus with 21 samples.

Results

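The proteasome subunit genes of mouse embryonic stem (ES) cells were followed through loss of Dot1l. They are the 48 genes, of 53796 in each deposited expression table, whose symbol is Psma, Psmb, Psmc, Psmd, Psme, Psmf or Psmg and a number. The rule uses the symbol alone. By role, 7 encode the alpha ring of the 20S core, 7 its beta ring, 5 tissue-specific or immunoproteasome core subunits, 6 the ATPase ring of the 19S cap, 11 its other subunits, 7 assembly chaperones, and 5 activators or an inhibitor. The proteasome is the barrel-shaped protease that degrades proteins tagged with ubiquitin. Its 20S core holds the proteolytic sites inside its beta rings, and the 19S cap binds ubiquitin chains, removes them and unfolds the substrate. Under interferon, inducible counterparts replace the catalytic beta subunits to form the immunoproteasome, whose peptides feed antigen presentation on MHC class I. Dot1l is the methyltransferase of histone H3 lysine 79, a mark that lies over the bodies of transcribed genes.

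RNA sequencing covered 5 groups of 3 libraries, all from strain V6.5. Dot1l KO cells and their controls, of wild-type genotype with a title that names a control sgRNA, were each measured under Wnt3a and activin A and in LIF. For the first condition, cells were moved to gelatin in N2B27 medium with Y-27632. They then received Wnt3a at 50 ng/ml with activin A at 10 ng/ml, which drive ES cells towards primitive streak, and were usually harvested after 24 h. In LIF, the cytokine that sustains self-renewal, cells grew in serum medium with 100 U/ml LIF on inactivated mouse embryonic fibroblasts. The fifth group, called ES cells here, carried the Cdk1as/as alleles, untreated, an analog-sensitive form of the mitotic kinase Cdk1, with Dot1l not labelled as changed. These ES cells were also grown with 100 U/ml LIF. Clone or pool is not stated for the KO cells. Nor is it stated that replicates were grown apart, so the p-values below reflect variation among libraries that may be technical only.

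Dot1l itself read 13.5, 12.9 and 14.7 FPKM (fragments per kilobase of transcript, scaled to library size) in KO libraries under Wnt3a and activin A, against 18.5, 17.7 and 19.1 in controls. In LIF it read 11.2, 8.90 and 10.8 FPKM in KO libraries, against 21.2, 20.6 and 24.6 in controls. The log2 fold changes were -0.40 and -1.04 (limma, adjusted p = 0.00462 and 0.0178), so the transcript was lower in both conditions and absent in neither, and the labels do not say what was deleted. Summed FPKM was 759255 to 792381 in KO libraries under Wnt3a and activin A, against 1087971 to 1144373 in controls. Mir6236 alone held 28.6% of the sum in KO replicate 3 in LIF, so counts are given below under 4 rescalings as well. The 5 ES cell markers summed to 1116 to 1210.5 FPKM in KO and 1858 to 2001 FPKM in control libraries under Wnt3a and activin A, and to 1941 to 2008 FPKM in KO and 2329.7 to 2432 FPKM in control libraries in LIF. Most of that sum is Pou5f1, while Sox2 did not pass under Wnt3a and activin A (0.14, adjusted p = 0.353), and the list's median per library was 6.68 to 7.54 FPKM in KO and 5.76 to 7.57 FPKM in control libraries there, which overlap. The 5 primitive streak markers summed to 1175 to 1219 FPKM in KO and 930.3 to 1027 FPKM in control libraries under Wnt3a and activin A, and to 5.08 to 5.56 FPKM in KO and 4.44 to 4.90 FPKM in control libraries in LIF. Under Wnt3a and activin A 4 of those 5 rose and Fgf8 fell with FPKM as deposited, but under none of the 4 rescalings (-0.30, adjusted p = 0.0185). The 10 fibroblast and feeder markers summed to 50.02 to 53.3 FPKM in KO and 39.5 to 43.1 FPKM in control libraries under Wnt3a and activin A, and to 44.7 to 47.6 FPKM in KO and 22.1 to 35.6 FPKM in control libraries in LIF. Of those 10, Col1a1, Col1a2, Col3a1 and Timp3 of 6 tested rose under Wnt3a and activin A, each under all 5 scalings (as deposited 19.6% of all genes rose), and 2 of 5 tested rose in LIF (0.958%), while Dcn stayed under 1 FPKM and Lum was listed at 0 in all but the KO libraries under Wnt3a and activin A. Of the mitochondrially encoded protein genes, 3 of 7 tested rose under Wnt3a and activin A as deposited (19.6% of all genes) and 7 of 7 with equal summed FPKM (49.0%). In LIF 5 of 7 rose (median 0.56, 0.958% of all genes). The part of these markers and of mitochondrial transcripts in the results below was not tested, and in bulk libraries fewer cells of a type and less RNA per cell cannot be told apart.

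Nearly all proteasome genes were well expressed in every group, and the constitutive core and cap genes had higher median levels than the chaperones. FPKM divides by transcript length, so levels can be set side by side between genes. The median of the 7 beta ring genes was 241 FPKM in KO and 383 FPKM in control cells under Wnt3a and activin A, 229.7 FPKM in KO cells in LIF, 119 FPKM in ES cells and 247 FPKM in control cells in LIF. For the 7 assembly chaperones, which build the complex and leave it, the median was 39.3 FPKM in KO and 70.6 FPKM in control cells under Wnt3a and activin A, 42.7 FPKM in KO cells in LIF, 22.8 FPKM in ES cells and 41.8 FPKM in control cells in LIF. The highest single level was Psme2 at 1427 ± 153 FPKM (SD, n = 3) in controls under Wnt3a and activin A, followed by the beta ring gene Psmb4 at 1318 ± 41.9 FPKM. Psmb11, the thymus-specific catalytic subunit, reached at most 0.206 FPKM in any of the 15 libraries and was not tested in either condition. Psma8, the alpha subunit of spermatogenic cells, averaged 5.70 ± 0.828 FPKM in KO, 8.89 ± 0.675 in ES and 6.50 ± 0.614 in control cells in LIF. Under Wnt3a and activin A it averaged 0.195 ± 0.0553 FPKM in KO and 0.275 ± 0.241 FPKM in control cells, too low for the filter of a mean of 1 FPKM over a table's 6 libraries. That left 46 members tested under Wnt3a and activin A and 47 in LIF.

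**Figure D1:**
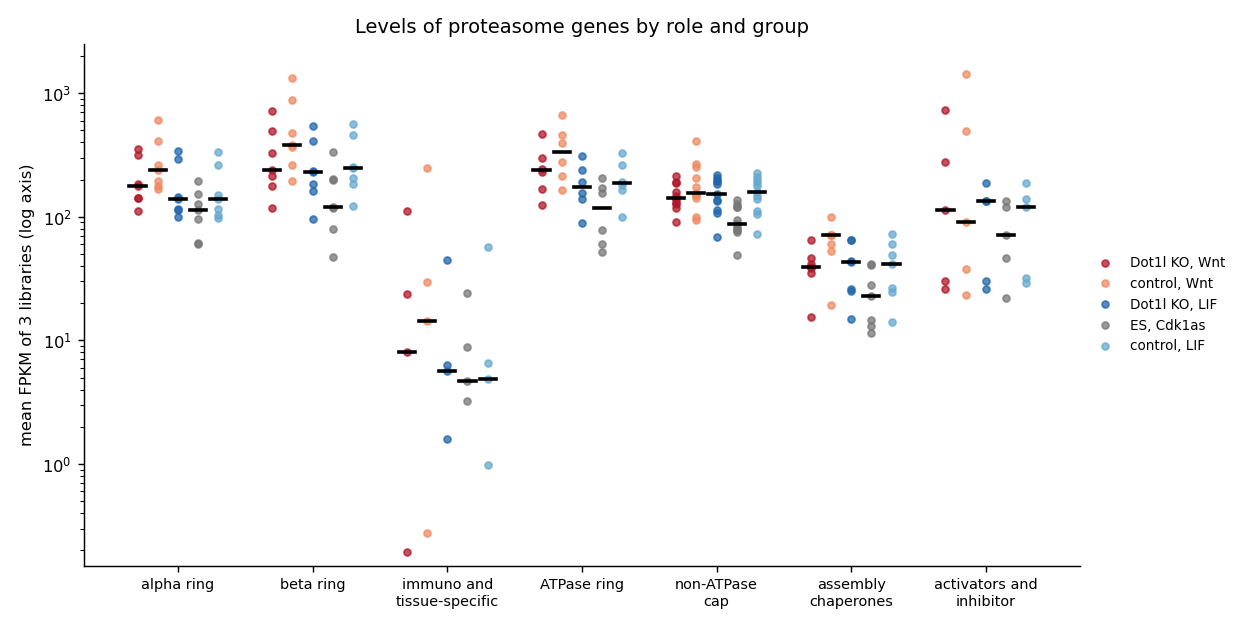
Mean FPKM of 3 libraries (log axis) of each proteasome gene, by role and group, each point a gene and each black bar the median of its role and group. The chaperones lie below the constitutive core and cap, whose beta ring median was 383 FPKM in controls under Wnt3a and activin A, the immunoproteasome and tissue-specific genes spread widest, and Psmb11 lies below the axis in every group.

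Between conditions, the 3 tables were scaled separately, so levels across them are given with no test. The ratio of control levels under Wnt3a and activin A to control levels in LIF had a median of 1.60 over the 46 members with a mean above the filter in both, and of 0.973 over all 11736 genes compared. The highest ratios belonged to genes of the immunoproteasome and its activator. Psmb8, the inducible chymotrypsin-like subunit, read 29.7, 29.1 and 30.4 FPKM in controls under Wnt3a and activin A, against 0.901, 1.24 and 0.820 FPKM in controls in LIF, a ratio of 30.2. The groups did not overlap. Psme2 and Psme1, the beta and alpha subunits of the PA28 activator, had ratios of 7.60 and 3.59, and the inducible Psmb10 and Psmb9 had ratios of 4.38 and 2.93. At the other end stood Psmd11, a cap subunit, at 0.536, with 94.4, 97.7 and 108 FPKM under Wnt3a and activin A, against 191, 171 and 198 FPKM in LIF. In ES cells the members' median ratio to controls in LIF was 0.608, beside 0.862 over all genes, with 0.334 for the ATPase Psmc4 as the lowest value and 3.28 for Psmb8 as the highest. Genotype, table and scaling cannot be told apart in that last comparison.

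The main comparison asked how the members differ between Dot1l KO and control cells under Wnt3a and activin A. As deposited, most were lower in KO cells. Of 46 members, 39 fell (adjusted p under 0.05, limma with Benjamini-Hochberg adjustment over 12770 genes), where 29.5% of all genes tested fell. The other direction held 3 members, Psmd11, Psmd14 and Psme3, where 19.6% of all genes rose. Psmb9, Psmc6, Psmd1 and Psme4 did not pass. Groups of 3 libraries lay apart with KO lower for the same number, 39 members (34.8% of all genes), and with KO higher for 3 (25.3% of all genes). The median log2 fold change was -0.53 over the members and -0.08 over all genes tested. In the authors' deposited table, 36 of 46 members were lower at a q-value under 0.05 (25.3% of 13959 genes) and 2 were higher (19.8%).

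How many members fell depended on how the libraries were put on 1 scale. With libraries brought to the median of ratios, 34 members fell (24.7% of all genes) and 5 rose (24.0%). With quantile normalization, 18 fell (22.4%) and 9 rose (21.8%). With every library divided by its summed FPKM without Mir6236, which moves the median of all genes to 0.37, 15 fell (8.07%) and 14 rose (49.0%). With the trend of fold change on gene span and level removed, 17 fell (20.5%) and 7 rose (19.7%). The members' median was -0.43, -0.12, -0.0036 and -0.10 under these 4 scalings in the same order. Set against the median of all genes under the same scaling, it lay lower by 0.44 as deposited, and the differences under the 4 others were -0.43, -0.09, -0.37 and -0.08 on the log2 scale. Thus the members' median was below that of all genes under each of the 5 scalings, by amounts that differed several-fold. The summed FPKM of the 48 members was 1.07% to 1.13% of the library in KO and 1.12% to 1.21% in control cells, ranges that overlap.

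Calls that held in the same direction under all 5 scalings are the ones that do not turn on this choice. They numbered 11 lower members, 23.9% of 46, where 6.95% of the 12024 genes tested under every scaling were called lower in this way. They were Psmb10, Psmg3, Psmd4, Psmc4, Psme1, Psmd9, Psmb3, Psma7, Psmc5, Psmb1 and Psmd13. The 3 higher members, Psmd11, Psmd14 and Psme3, also held under all 5, which is 6.52% of members, where 13.6% of all genes did. Each of the 7 roles held at least 1 of the 11. As deposited, 22 of the 48 members share their locus with other listed genes, among them Psmb10, Psmg3, Psmd9, Psme1, Psmc5, Psmd13 and Psmd14, so reads could be shared. Of the 24 tested members alone at their locus, 21 fell and 2 rose as deposited (29.5% and 19.6% of all genes), with a median of -0.51.

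**Figure D2:**
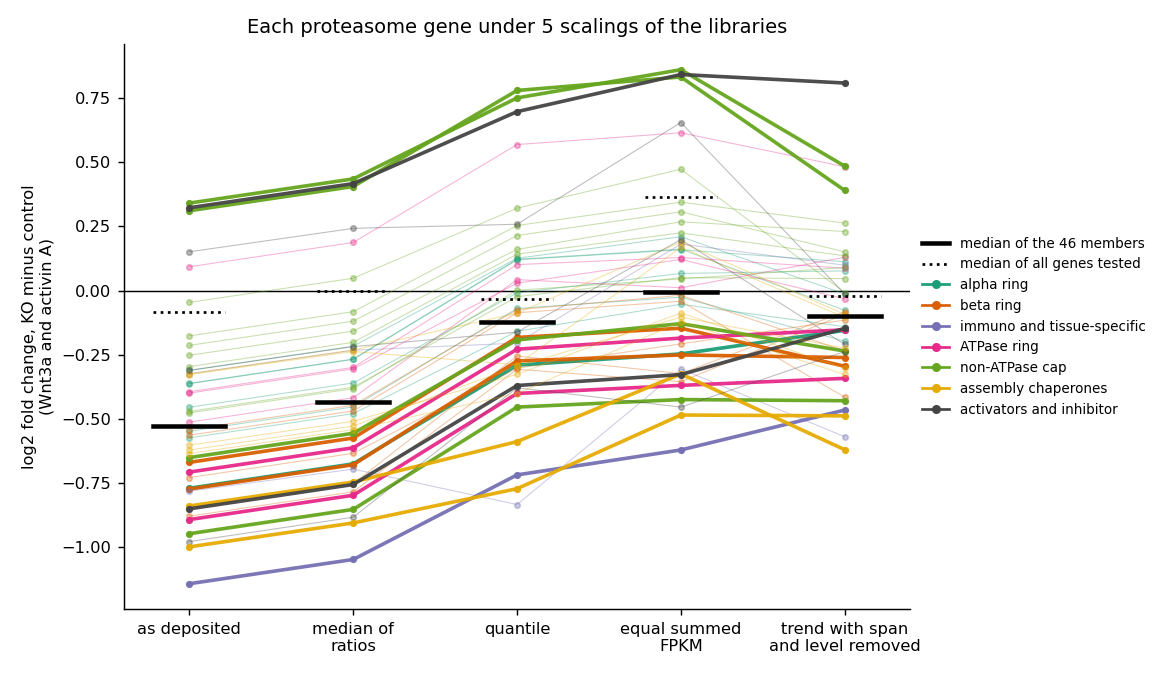
Log2 fold change (KO minus control, Wnt3a and activin A) of the 46 tested proteasome genes under 5 scalings, a line per gene coloured by role, thick where the call held in 1 direction under all 5. Black bars mark the members' median, -0.53 as deposited and -0.0036 with equal summed FPKM, and dotted bars the median of all genes, -0.08 and 0.37. The 11 thick lower lines stay below 0 and the 3 thick upper lines above it, while many thin lines cross 0.

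In the 20S core as deposited, all 14 constitutive genes fell under Wnt3a and activin A (29.5% of all genes). Under the median of ratios 14 fell (24.7%), and under quantile normalization 7 fell and 1 rose (22.4% and 21.8%). Under equal summed FPKM 6 fell and 2 rose (8.07% and 49.0%), and under trend removal 5 fell and 0 rose (20.5% and 19.7%). As deposited, beta ring genes had larger changes (median -0.73) than alpha ring genes (median -0.45). With equal summed FPKM the alpha ring median turned to 0.07 and that of the beta ring stayed below 0, at -0.21. In the alpha ring, which gates entry to the core, Psma7 had the largest change. It read 335, 361 and 366 FPKM in KO libraries, against 606, 610.3 and 595 FPKM in control libraries. The groups did not overlap, the log2 fold change was -0.77 ± 0.04 (SE, adjusted p = 9.67e-05), and it ranged from -0.77 to -0.15 over the 5 scalings. Psma2 read 111, 113 and 112 FPKM in KO libraries, against 178, 169 and 156 FPKM in control libraries (-0.57, adjusted p = 5.00e-04). For Psma5 the values were 187, 182 and 163 FPKM in KO libraries, against 267, 274 and 239 FPKM in control libraries (-0.55, adjusted p = 0.00184), and for Psma4 143, 141 and 145 FPKM in KO libraries, against 199, 195 and 194 FPKM in control libraries (-0.45, adjusted p = 2.58e-04). Each of these alpha genes was lower in all 3 KO libraries, but the call of Psma2 and Psma5 was lost under at least 1 scaling, and the Psma4 change turned to 0.07 with equal sums and to 0.08 with the trend removed. Psma1, Psma3 and Psma6 fell by 0.31 to 0.36 as deposited and were above 0 with equal sums.

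The beta ring carries the proteolytic sites in Psmb5, Psmb6 and Psmb7, while Psmb1, Psmb2, Psmb3 and Psmb4 are structural. Psmb4 had the largest change in the ring and was also its most abundant member, with 666, 758 and 728 FPKM in KO libraries, against 1332, 1350.5 and 1271 FPKM in control libraries. Its log2 fold change was -0.88 ± 0.06 (SE, adjusted p = 1.27e-04). Psmb3 read 204, 217 and 217 FPKM in KO libraries, against 359.6, 363 and 369.6 FPKM in control libraries, a log2 fold change of -0.77 ± 0.04 (SE, adjusted p = 7.85e-05), and it was lower under all 5 scalings (-0.77 to -0.25). All 3 catalytic genes fell as deposited (29.5% of all genes). Psmb6, the caspase-like subunit, read 471, 497 and 503 FPKM in KO libraries, against 919, 856 and 874 FPKM in control libraries (-0.85, adjusted p = 7.95e-05). Psmb5, the chymotrypsin-like subunit and the target of proteasome inhibitor drugs, read 114, 116 and 122 FPKM in KO libraries, against 195, 190.0 and 201 FPKM in control libraries (-0.73, adjusted p = 1.22e-04). Psmb7, the trypsin-like subunit, read 172, 177 and 182 FPKM in KO libraries, against 262, 261 and 263 FPKM in control libraries (-0.56, adjusted p = 1.52e-04). No KO library reached a control library for any of these 5 genes. Psmb1 (-0.67) and Psmb2 (-0.54) fell too, Psmb1 under all 5 scalings. Every beta ring gene had a negative change under each scaling, although Psmb2, Psmb4, Psmb5, Psmb6 and Psmb7 were not called under all of them.

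Among the inducible subunits the changes were unequal. Psmb10, which replaces Psmb7 in the immunoproteasome, had the largest change of all members. It read 103, 115 and 117 FPKM in KO libraries, against 263, 217 and 265 FPKM in control libraries, with means of 112 ± 7.84 and 248 ± 27.1 FPKM (SD, n = 3 each). The groups were far apart, the log2 fold change was -1.14 ± 0.10 (SE, adjusted p = 2.96e-04), and it ranged from -1.14 to -0.47 over the scalings. Psmb10 lies at chr8:105935728-105938392 (RefSeq, GRCm38.p6), where the deposited locus lists 5 genes, itself included. Psmb8, which replaces Psmb5, read 19.9, 25.8 and 25.5 FPKM in KO libraries, against 29.7, 29.1 and 30.4 FPKM in control libraries. Its change of -0.32 ± 0.11 (SE, adjusted p = 0.0473) turned to 0.18 with equal sums and to 0.10 with the trend removed, and its call was lost when any library but KO replicate 1 was left out (adjusted p of 0.0510 to 0.119). Psmb9, which replaces Psmb6, read 4.97, 8.71 and 10.3 FPKM in KO libraries, against 9.65, 17.8 and 15.6 FPKM in control libraries. The groups overlapped and its change of -0.78 did not pass (adjusted p = 0.0799).

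Ratios of paired subunits within a library are free of any scale factor. The ratio of Psmb10 to Psmb7 was 0.598, 0.651 and 0.642 in KO libraries under Wnt3a and activin A, against 1.00, 0.832 and 1.01 in control libraries, a fold of 0.668 (two-sided exact permutation test, p = 0.1). With 3 libraries against 3 that is the smallest p the test can give, so none of these ratios could reach 0.05. The groups did not overlap, and in LIF the ratios were 0.282, 0.269 and 0.276 in KO and 0.300, 0.304 and 0.319 in control libraries, again apart (fold 0.896, exact p = 0.1). The ratio of Psmb8 to Psmb5 went the other way. It was 0.174, 0.223 and 0.208 in KO and 0.153, 0.153 and 0.151 in control libraries under Wnt3a and activin A (fold 1.32, exact p = 0.1). In LIF it was 0.0163, 0.0179 and 0.0155 in KO and 0.00744, 0.0103 and 0.00664 in control libraries (fold 2.07, exact p = 0.1), from Psmb8 levels near the filter of 1 FPKM. There Psmb8 alone lay apart higher and Psmb5 alone apart lower. The LIF ratio of these genes therefore had to lie apart, and its p adds nothing. For Psmb9 over Psmb6 the groups overlapped in both conditions, with folds of 0.990 (exact p = 0.8) and 1.53 (exact p = 0.2). Against its constitutive partner, the inducible subunit was thus lower for Psmb10 and higher for Psmb8 in KO libraries of both conditions. How often ratios of other gene pairs lie apart was not counted. Of single genes under Wnt3a and activin A, 34.8% lay apart lower and 25.3% higher. A ratio is not free of a trend on gene span. Psmb10 spans 2.67 kb and Psmb7 55.9 kb, and the part of span in their ratio was not tested.

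**Figure D3:**
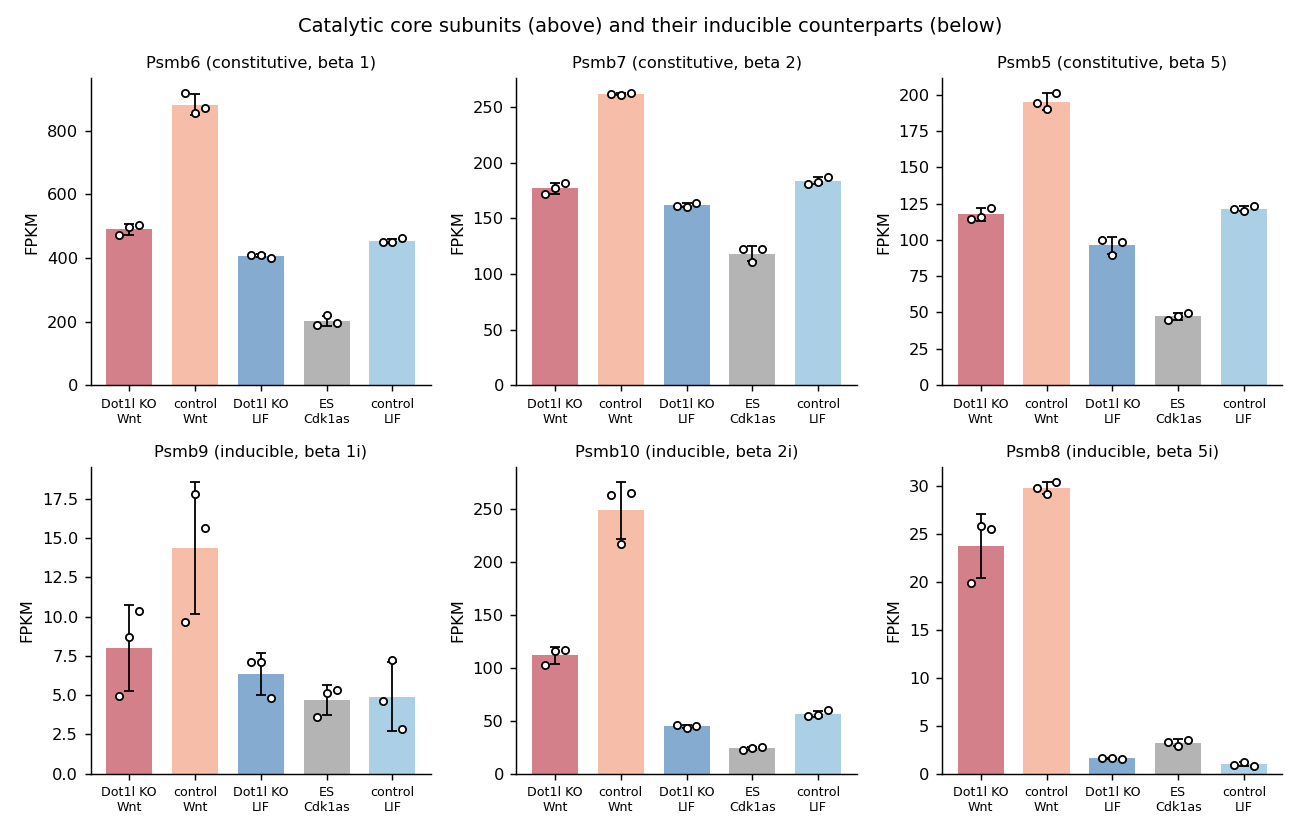
FPKM of the catalytic subunits Psmb6, Psmb7 and Psmb5 (upper row) and of their inducible counterparts Psmb9, Psmb10 and Psmb8 (lower row) in 5 groups, as bars of the mean with SD over 3 libraries and a point per library. Under Wnt3a and activin A every KO point lies below every control point except for Psmb9, and Psmb8 averages 29.7 ± 0.658 FPKM in controls under Wnt3a and activin A, against 0.986 ± 0.221 FPKM in controls in LIF. Levels across the 3 tables (Wnt, LIF and ES) were scaled separately.

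In the 19S cap most genes fell as deposited and 2 of 17 rose (29.5% and 19.6% of all genes). In its ATPase ring, which unfolds substrates, 5 of 6 genes fell as deposited (29.5% of all genes). With equal summed FPKM 2 fell and 2 rose (8.07% and 49.0%). Psmc6 did not pass as deposited (0.09, adjusted p = 0.156) but was called higher under the 4 other scalings. Psmc4 read 238, 246 and 252 FPKM in KO libraries, against 451, 458 and 459.8 FPKM in control libraries. The groups did not overlap, the log2 fold change was -0.89 ± 0.04 (SE, adjusted p = 5.83e-05), and it ranged from -0.89 to -0.34 over the scalings. Psmc5 read 156, 177 and 173 FPKM in KO libraries, against 282, 268 and 275 FPKM in control libraries (-0.71, adjusted p = 2.86e-04, lower under all 5). Psmc3 and Psmc2 behaved differently under rescaling. Psmc3 read 438, 494 and 458 FPKM in KO libraries, against 702, 648 and 633 FPKM in control libraries (-0.51, adjusted p = 0.00105), but its change was above 0 with quantile normalization, equal sums and the trend removed. Psmc2 read 122, 128 and 122 FPKM in KO libraries, against 165, 166 and 159.9 FPKM in control libraries (-0.40, adjusted p = 6.22e-04), and was above 0 with quantile normalization and equal sums. Psmc1 fell as deposited (-0.39) and was above 0 with quantile normalization, equal sums and the trend removed.

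Of the 11 other cap genes, 8 fell and 2 rose as deposited (29.5% and 19.6% of all genes). With equal summed FPKM 2 fell and 7 rose (8.07% and 49.0% of all genes). Psmd4, a ubiquitin receptor, fell under every scaling. It read 202, 222 and 217 FPKM in KO libraries, against 415, 396 and 426 FPKM in control libraries, with a log2 fold change of -0.95 ± 0.05 (SE, adjusted p = 8.52e-05) and a range of -0.95 to -0.42 over the scalings. Psmd13 read 155, 160.4 and 162 FPKM in KO libraries, against 245, 258 and 248 FPKM in control libraries (-0.65, adjusted p = 1.15e-04, lower under all 5), and its deposited locus lists 11 genes, itself included. Psmd8 and Psmd7 are structural lid subunits, and Psmd7 pairs with Psmd14. Psmd8 read 191, 197 and 187 FPKM in KO libraries, against 275, 263 and 263 FPKM in control libraries (-0.48, adjusted p = 2.93e-04) and Psmd7 read 147, 144 and 152 FPKM in KO libraries, against 211, 199 and 205 FPKM in control libraries (-0.47, adjusted p = 3.62e-04). Both lay apart as deposited, and both were above 0 with equal sums and with the trend removed. Psmd1, the large scaffold of the cap base, read 93.2, 91.6 and 89.3 FPKM in KO and 97.3, 93.8 and 92.03 FPKM in control libraries, which overlapped (-0.05, adjusted p = 0.418). Psmd2, Psmd3, Psmd6 and Psmd12 fell by 0.18 to 0.30 as deposited and rose by 0.22 to 0.34 with equal sums.

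The cap genes that rose, a share not above the 19.6% of all genes that did, were Psmd14, the deubiquitinase that strips ubiquitin chains from substrates, and Psmd11, a lid subunit whose level is known to be high in pluripotent human cells. Psmd14 read 212, 182 and 172 FPKM in KO libraries, against 145, 150.0 and 159 FPKM in control libraries. Its log2 fold change was 0.31 ± 0.09 (SE, adjusted p = 0.0257) and 0.31 to 0.83 over the scalings, but with KO replicate 2, control replicate 1 or control replicate 2 left out the adjusted p was 0.057, 0.081 and 0.073. Psmd11, named here after its values were seen, read 129, 129 and 122 FPKM in KO libraries, against 94.4, 97.7 and 108 FPKM in control libraries. The KO libraries all lay above the control libraries (log2 fold change 0.34, adjusted p = 0.00552), with 0.34 to 0.86 over the scalings. Ratios to a neighbouring lid subunit, chosen after the values were seen and so given with no test, are free of a scale factor. Psmd14 over Psmd7 was 1.44, 1.26 and 1.13 in KO and 0.687, 0.754 and 0.775 in control libraries. Psmd11 over Psmd12 was 1.00, 1.00 and 0.967 in KO and 0.633, 0.673 and 0.713 in control libraries. In LIF the groups overlapped for both ratios, at 0.751, 0.977 and 0.811 in KO and 0.831, 0.833 and 0.876 in control libraries for the first.

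All 7 assembly chaperones fell as deposited (29.5% of all genes), with log2 fold changes of -0.998 to -0.32, and 2 fell with equal summed FPKM (8.07% of all genes). Psmg3, which helps the alpha ring to form, read 34.97, 36.5 and 32.8 FPKM in KO libraries, against 76.6, 61.8 and 73.5 FPKM in control libraries. The groups lay apart, with a log2 fold change of -0.998 ± 0.09 (SE, adjusted p = 4.14e-04) and -0.998 to -0.48 over the scalings. Psmd9, a chaperone of the ATPase ring, read 37.7, 38.7 and 41.4 FPKM in KO libraries, against 76.7, 74.1 and 62.8 FPKM in control libraries (-0.84, adjusted p = 6.12e-04, lower under all 5), and its deposited locus lists 12 genes, itself included. Psmg2 and Psmg1 form a pair that guides the alpha ring. Psmg2 read 40.3, 38.4 and 36.95 FPKM in KO libraries, against 58.8, 59.1 and 63.2 FPKM in control libraries (-0.63, adjusted p = 3.69e-04). Psmg1 read 64.6, 66.6 and 63.2 FPKM in KO libraries, against 104, 106 and 90.3 FPKM in control libraries (-0.62, adjusted p = 9.46e-04). Both were below 0 under all 5 scalings, without being called under each. Psmg4 (-0.60), Psmd10 (-0.33) and Psmd5 (-0.32) made up the rest, and the last pair turned above 0 with equal sums.

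The activators divided by type. Psme1 and Psme2 form the interferon-inducible PA28 alpha-beta ring, and both fell. Psme2 read 714, 627 and 839 FPKM in KO libraries, against 1536, 1252 and 1493 FPKM in control libraries, with a log2 fold change of -0.98 ± 0.13 (SE, adjusted p = 0.00137) that was negative but not called under every scaling. Its near-identical copy Psme2b is listed as a gene of its own, so its reads could be split. Psme1 read 270.3, 279.7 and 275 FPKM in KO libraries, against 511, 492 and 486 FPKM in control libraries, a change of -0.85 ± 0.04 (SE, adjusted p = 6.21e-05) and lower under all 5 scalings (-0.85 to -0.15). Psme3 forms the separate nuclear PA28 gamma ring, and it rose. It read 116, 118 and 107 FPKM in KO libraries, against 92.1, 92.5 and 87.7 FPKM in control libraries, with the groups apart, a log2 fold change of 0.32 ± 0.06 (SE, adjusted p = 0.00421) and 0.32 to 0.84 over the scalings. Psme1 over Psme3 was 2.32, 2.36 and 2.57 in KO and 5.54, 5.32 and 5.54 in control libraries, a fold of 0.442 (exact permutation test, p = 0.1). Because each gene lay apart in its own direction, this ratio had to lie apart, and its p adds nothing to the 2 calls. In LIF the fold of the same ratio was 0.872 (exact permutation p = 0.1). Psme2 over Psme3 had a fold of 0.405 under Wnt3a and activin A. In LIF its fold was 0.919 and the groups overlapped (exact permutation p = 0.7). Whether the 2 PA28 subunits differed there was not tested. Psme4, the PA200 activator, read 26.5, 26.9 and 23.97 FPKM in KO libraries, against 22.2, 24.5 and 22.7 FPKM in control libraries and did not pass (0.15, adjusted p = 0.126). Psmf1, an inhibitor of the core, read 27.9, 32.4 and 31.2 FPKM in KO libraries, against 38.1, 37.2 and 38.6 FPKM in control libraries (-0.31, adjusted p = 0.0115), and its change was 0.20 with equal sums.

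**Figure D4:**
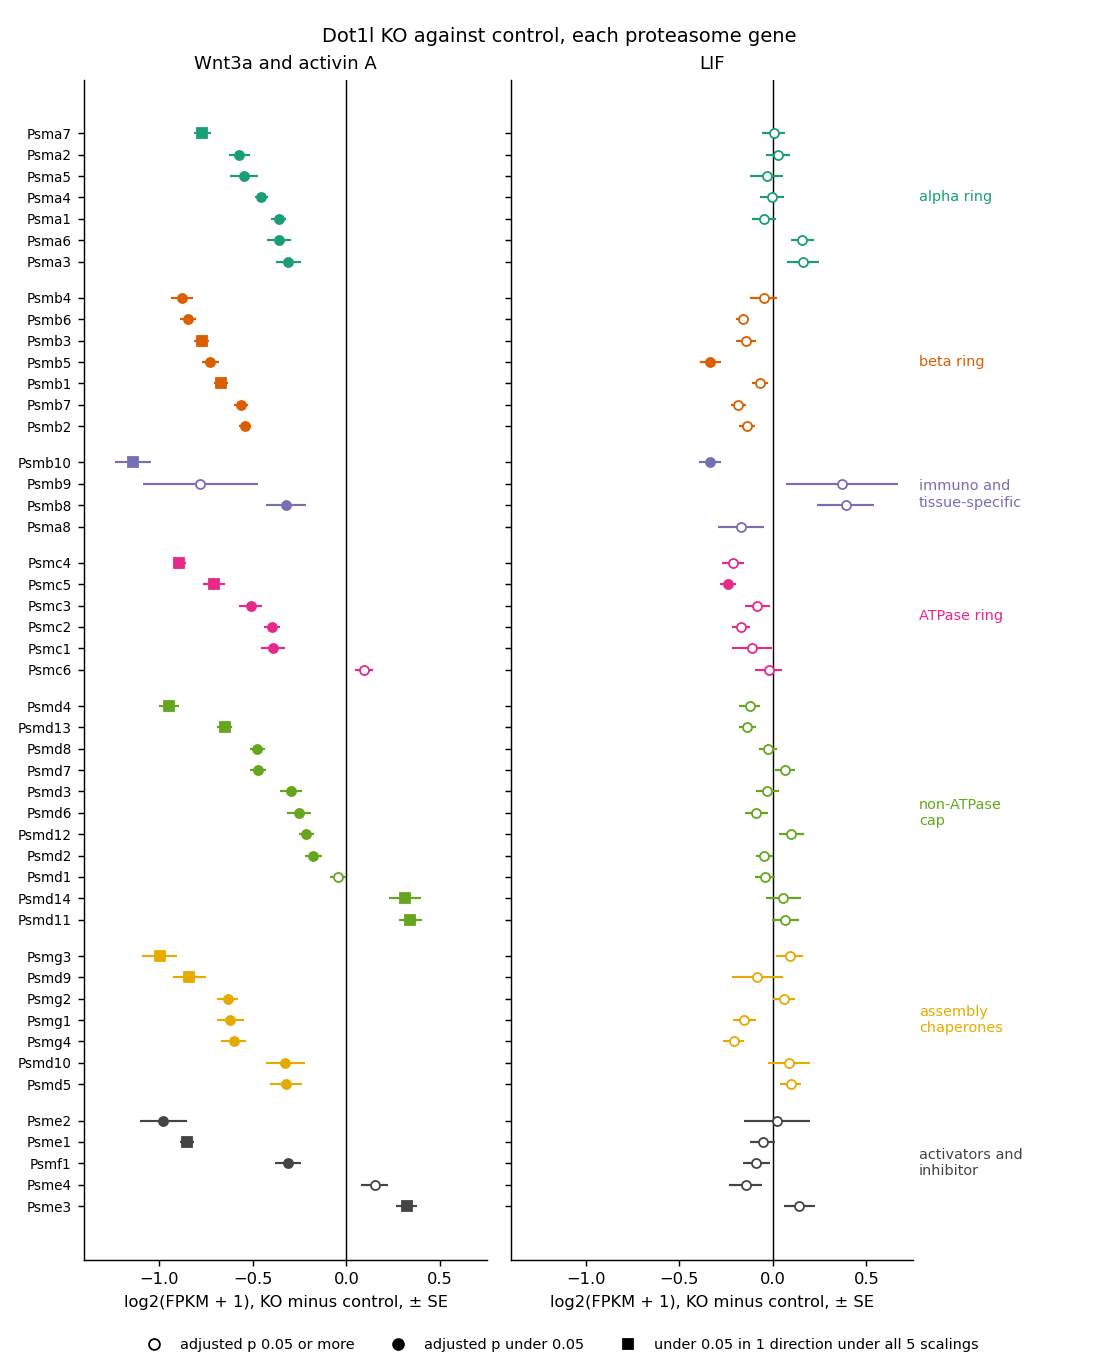
Log2 fold change (KO minus control on log2(FPKM + 1), ± SE, 3 libraries a group) of each tested proteasome gene, by role, under Wnt3a and activin A (left) and in LIF (right). Filled symbols passed an adjusted p of 0.05 with FPKM as deposited, squares under all 5 scalings in 1 direction. Under Wnt3a and activin A 39 genes lie lower and 3 higher as deposited (15 and 14 with equal summed FPKM), and in LIF 3 genes are filled, of which none held under rescaling.

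The stretches around the starts of the members whose calls held are described next. RefSeq promoters (GRCm38.p6, 250 bases before to 50 after a gene's start) were matched by symbol for 40 members, as 43 promoters. Those of 3 lower and 3 higher members are shown because their calls under Wnt3a and activin A held under all 5 scalings, the lower ones being the 3 with the largest change, and capitals mark CGGAAG on either strand (printed CTTCCG when on the other), the core bound by ETS-family factors.
Psmb10: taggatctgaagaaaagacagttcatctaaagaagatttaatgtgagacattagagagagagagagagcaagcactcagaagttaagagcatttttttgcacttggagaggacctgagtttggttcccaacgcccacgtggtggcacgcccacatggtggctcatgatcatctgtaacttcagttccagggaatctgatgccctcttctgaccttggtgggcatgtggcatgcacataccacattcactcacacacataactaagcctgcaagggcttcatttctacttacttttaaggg
Psmg3: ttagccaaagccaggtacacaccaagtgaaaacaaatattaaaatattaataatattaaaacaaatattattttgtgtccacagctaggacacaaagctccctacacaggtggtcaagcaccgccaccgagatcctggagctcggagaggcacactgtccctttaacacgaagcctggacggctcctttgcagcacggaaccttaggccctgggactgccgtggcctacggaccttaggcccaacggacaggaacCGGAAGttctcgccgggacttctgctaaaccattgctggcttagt
Psmd4: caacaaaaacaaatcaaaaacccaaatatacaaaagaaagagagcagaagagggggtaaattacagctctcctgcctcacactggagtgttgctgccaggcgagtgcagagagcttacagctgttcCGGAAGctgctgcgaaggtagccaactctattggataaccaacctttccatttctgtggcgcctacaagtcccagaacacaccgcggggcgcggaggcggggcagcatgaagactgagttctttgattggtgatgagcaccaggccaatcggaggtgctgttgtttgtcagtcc
Psmd11: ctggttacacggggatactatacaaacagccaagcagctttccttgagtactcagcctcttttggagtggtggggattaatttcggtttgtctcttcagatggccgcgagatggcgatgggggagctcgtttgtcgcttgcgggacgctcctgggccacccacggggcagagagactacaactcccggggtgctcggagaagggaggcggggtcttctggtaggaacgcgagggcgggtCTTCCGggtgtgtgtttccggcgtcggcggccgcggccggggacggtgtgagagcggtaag
Psmd14: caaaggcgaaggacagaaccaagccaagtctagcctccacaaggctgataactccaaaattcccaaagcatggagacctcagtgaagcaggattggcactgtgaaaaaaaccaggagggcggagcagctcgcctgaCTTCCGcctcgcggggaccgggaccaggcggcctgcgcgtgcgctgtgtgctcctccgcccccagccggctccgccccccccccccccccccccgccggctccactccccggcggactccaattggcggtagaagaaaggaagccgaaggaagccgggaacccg
Psme3: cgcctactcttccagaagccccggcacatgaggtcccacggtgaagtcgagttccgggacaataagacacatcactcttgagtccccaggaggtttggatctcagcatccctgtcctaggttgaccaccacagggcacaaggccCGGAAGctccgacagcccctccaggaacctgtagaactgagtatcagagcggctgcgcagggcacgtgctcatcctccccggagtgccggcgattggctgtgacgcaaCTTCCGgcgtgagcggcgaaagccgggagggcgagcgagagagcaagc
They lie at chr8:105938343-105938642, chr5:139826845-139827144 and chr3:95042565-95042864 on the minus strand and at chr11:80428365-80428664, chr2:61711444-61711743 and chr11:101315963-101316262 on the plus strand. CGGAAG occurred in 23 of 43 member promoters (53.5%), in 31.0% of 11971 promoters of genes tested under Wnt3a and activin A, and in 16.9% of all 32851 promoters. It occurred in 5 of 10 promoters of lower members, in 3 of 3 of higher members and in 15 of 30 of the others, where lower and higher mean calls under all 5 scalings. TGACNNNGC, the antioxidant response core read by Nfe2l1 and Nfe2l2, occurred on either strand in 6 of 43 (14.0%), beside 14.3% of promoters of tested genes. The core of the interferon-stimulated response element, GAAA and GAAA with 2 bases between them, occurred on either strand in 5 of 43 (11.6%), beside 2.61% of promoters of tested genes. Those 5 were Psmb3, Psmd4, Psmd9, Psme1 and Psmg4, of which the first 4 were among the lower members and Psmg4 was not. Sites of different motifs may share letters where they meet, and a match is a description of letters in this window, not of binding.

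In LIF, the same comparison gave few calls among the members. As deposited, 3 of 47 fell, where 3.45% of 13153 genes fell, and 0 rose, where 0.958% of all genes did (limma). At an unadjusted p under 0.05, 12 were lower and 2 higher, where 24.5% of all genes passed in either direction. The median log2 fold change was -0.05 over the members and -0.07 over all genes, and the members' median turned positive under the 4 other scalings, at 0.02 to 0.06. Groups lay apart with KO lower for 13 members (22.5% of all genes) and with KO higher for 2 (8.66%), Psma6 and Psmb8. By the authors' deposited table, a single member, Psmb5, was lower (q-value under 0.05, 3.54% of 14960 genes) and 0 were higher (3.20%).

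The 3 calls were a constitutive catalytic subunit, an inducible one and an ATPase. Psmb10 read 45.5, 43.1 and 45.3 FPKM in KO libraries, against 54.4, 55.6 and 59.9 FPKM in control libraries, a log2 fold change of -0.34 ± 0.06 (SE, adjusted p = 0.0364). Psmb5 read 100.1, 89.8 and 98.8 FPKM in KO libraries, against 121, 119.8 and 124 FPKM in control libraries, a log2 fold change of -0.33 ± 0.06 (SE, adjusted p = 0.0345). Psmc5 read 143, 138 and 136 FPKM in KO libraries, against 164, 160.4 and 169 FPKM in control libraries, a log2 fold change of -0.24 ± 0.04 (SE, adjusted p = 0.0429). All 3 were also among the members that fell under Wnt3a and activin A, and in LIF no KO library reached a control library for any of them. None was called when any 1 library was left out, where 1 to 27 of all 13153 genes were called, or under any of the 4 rescalings. With the median of ratios 1.49% of all genes fell and 1.25% rose, with quantile normalization 1.08% and 0.981%, with equal summed FPKM 1.07% and 0.973%, and with the trend removed 1.25% and 1.39%. Under all 5 scalings 0 members were called in LIF, where 0.924% of all genes were lower and 0.722% higher (limma). Psmb6 read 411, 408 and 401 FPKM in KO libraries, against 449.8, 452 and 462 FPKM in control libraries (adjusted p = 0.0593) and Psmb7 161, 160.5 and 164 FPKM in KO libraries, against 182, 183 and 188 FPKM in control libraries (adjusted p = 0.0550), so the groups were apart although neither passed. Of the other inducible subunits, Psmb8 was higher in every KO library and Psmb9 overlapped, and neither passed. Psmb8 read 1.63, 1.61 and 1.53 FPKM in KO libraries, against 0.901, 1.24 and 0.820 FPKM in control libraries (0.39, adjusted p = 0.187), and Psmb9 read 7.13, 7.11 and 4.83 FPKM in KO libraries, against 4.64, 7.24 and 2.83 FPKM in control libraries (0.37, adjusted p = 0.505). For the deubiquitinase and the activators the groups overlapped. Psmd14 read 166, 209 and 176 FPKM in KO libraries, against 172, 185 and 171 FPKM in control libraries, and Psme3 read 122, 138 and 139 FPKM in KO libraries, against 132, 113 and 117 FPKM in control libraries. Psme1 read 127, 132 and 140.0 FPKM in KO libraries, against 140.3, 128 and 146 FPKM in control libraries, and Psme2 read 187, 184 and 188 FPKM in KO libraries, against 143, 181 and 239 FPKM in control libraries. Psme4 had a log2 fold change of -0.15 (adjusted p = 0.374) and Psmf1 of -0.09 (adjusted p = 0.506), and neither passed. Across the 44 members that were not called, log2 fold changes ran from -0.21 to 0.39.

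Whether the KO effect differed between the conditions was tested as an interaction over 12 libraries. As deposited, the effect under Wnt3a and activin A was lower than in LIF for 34 of 46 members (20.7% of 11783 genes) and higher for 1, Psmd11 (17.6%). Under all 5 scalings the difference held for 8 lower members, 17.4%, where 4.27% of 11214 genes did, and for Psmd11, where 10.9% did. The 8 were Psmb10, Psmg3, Psmg2, Psme1, Psmd4, Psma7, Psmc4 and Psmb3. For Psmg3 the difference of effects was -1.09 ± 0.12 (SE, adjusted p = 8.83e-05), from changes of -0.998 under Wnt3a and activin A and 0.09 in LIF. For Psmb10 it was -0.81 (adjusted p = 4.02e-04), from -1.14 and -0.34. Psmb8 had changes of -0.32 and 0.39, a difference of -0.71 (adjusted p = 0.00470) that did not hold under all scalings. The higher difference of Psmd11, 0.27, was close to the threshold (adjusted p = 0.0481) and did not pass when 9 of the 12 libraries were left out in turn.

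Shorter members had larger decreases under Wnt3a and activin A, as short genes did across the table. Over the 46 members, Spearman's rank correlation between the log2 fold change and gene span (RefSeq, GRCm38.p6) was 0.578, and over 12024 genes it was 0.429. With mean level, the rank correlation was -0.398 over the members and -0.353 over all genes. These correlations run across genes of the same 6 libraries, and genes are not independent replicates. The 15 shortest members, of 2.54 to 7.33 kb, had a median change of -0.77, while 1720 genes of that span range had a median of -0.42, of which 53.5% fell. The 16 middle members, of 8.10 to 18.5 kb, had a median of -0.52, beside -0.20 over 2623 genes (39.5% fell). The 15 longest members, of 18.5 to 109 kb, had a median of -0.32, beside 0.08 over 5299 genes (19.4% fell). Of these 3 sets, 13, 16 and 10 members fell. Psmb10 spans 2.67 kb and Psmg3 3.28 kb, at the short end, whereas Psmd11 spans 44.6 kb and Psmd14 88.7 kb. Psme3, at 7.33 kb, was the short gene that rose, and Psmd9, at 21.9 kb, had a large decrease in a long gene. In LIF the rank correlation with span was -0.0056 over the members and 0.070 over all genes. With that trend removed, 17 members fell, as given above.

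**Figure D5:**
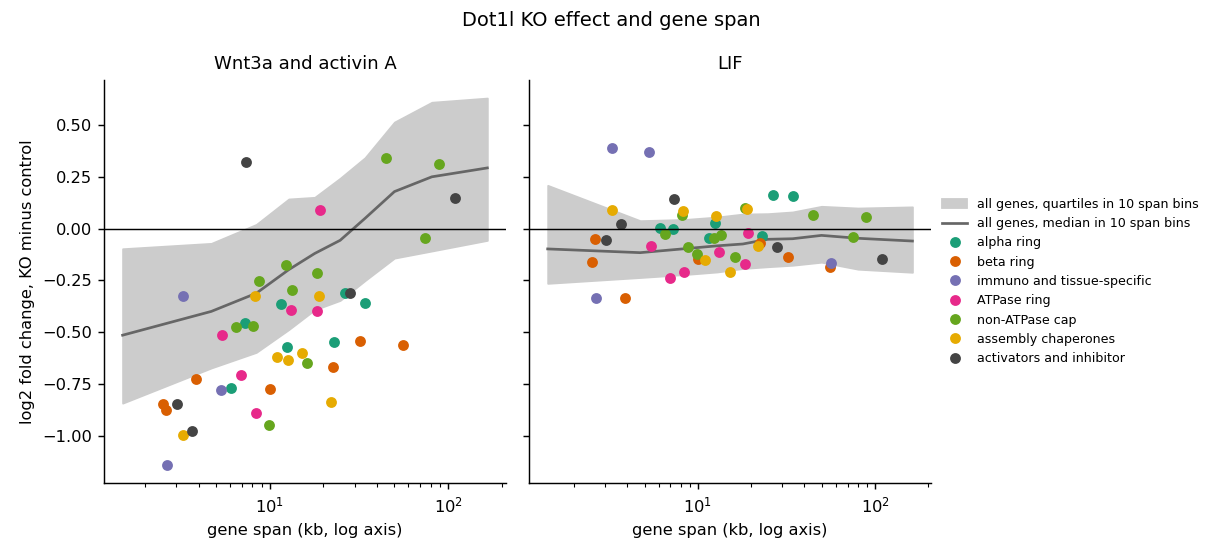
Log2 fold change (KO minus control) against gene span (kb, log axis) for the proteasome genes, coloured by role, under Wnt3a and activin A (left) and in LIF (right), over the median (line) and quartiles (band) of all genes in 10 bins of span. On the left the all-gene line climbs with span and most members lie below it, with Psme3 well above. On the right members scatter around the line near 0.

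Genes that work with the proteasome under other names were read beside it. Of 9 such partners, 5 fell and 1 rose under Wnt3a and activin A as deposited (29.5% and 19.6% of all genes). With equal summed FPKM 2 fell and 5 rose (8.07% and 49.0%), and with the trend removed 2 fell (20.5%). Sem1, a small cap subunit, read 71.2 to 79.7 FPKM in KO and 129 to 139.6 FPKM in control libraries (-0.81, adjusted p = 1.94e-04). Adrm1, a ubiquitin receptor of the cap, read 70.8 to 76.4 FPKM in KO and 115 to 129 FPKM in control libraries (-0.74, adjusted p = 3.05e-04). Both fell under all 5 scalings. Pomp, the maturation factor of the core, read 342 to 407 FPKM in KO and 559 to 586 FPKM in control libraries (-0.63, adjusted p = 6.68e-04). Ube3c, a ubiquitin ligase bound to the proteasome, rose as deposited (0.43, adjusted p = 0.00397), with 14.5 to 16.5 FPKM in KO and 10.9 to 11.6 FPKM in control libraries.

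Of genes that supply ubiquitin, Ubb changed by -0.62 (adjusted p = 2.97e-04) under Wnt3a and activin A as deposited. Rps27a, which fuses ubiquitin to a ribosomal protein, changed by -0.87 (adjusted p = 5.19e-05) there and by -0.36 in LIF (adjusted p = 0.0245). The cytoplasmic ribosomal protein genes, a set of abundant short genes, all fell under Wnt3a and activin A as deposited (82 of 82 tested, median -0.91, 29.5% of all genes). With quantile normalization 52 were lower and 3 higher (22.4% and 21.8% of all genes). With equal sums 75 were lower and 0 higher (8.07% and 49.0%). With the trend on span and level removed 38 were lower and 4 higher (20.5% and 19.7%). Of the 8 genes of the CCT chaperonin, another multi-subunit ring, 7 fell as deposited (median -0.38, 29.5% of all genes). With equal sums 1 fell and 4 rose (8.07% and 49.0% of all genes). The proteasome genes were not tested against these sets.

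Nfe2l1, the activator known to raise proteasome genes together, did not pass. It read 54.99 to 64.2 FPKM in KO and 58.9 to 60.7 FPKM in control libraries under Wnt3a and activin A (0.03 ± 0.07, SE, adjusted p = 0.739), a gene singled out after its values were seen. Of the 9 genes of its list, 4 fell and 2 rose as deposited (29.5% and 19.6% of all genes). With equal summed FPKM 1 fell and 5 rose (8.07% and 49.0%), and with the trend removed 2 fell and 4 rose (20.5% and 19.7%). Ddi2, the protease that activates Nfe2l1, rose (0.68, adjusted p = 7.44e-04, higher under all 5 scalings). Hmox1, Nqo1 and Gclm, antioxidant genes that respond to the related Nfe2l2, fell as deposited (-0.70, -0.54 and -0.46, adjusted p = 1.86e-04, 0.00422 and 0.0338), of which Hmox1 held under all 5. Txnrd1, another such gene, rose (0.24, adjusted p = 0.00987) under all 5; it is named after its values were seen. In LIF, 2 of the 9 fell as deposited (3.45% of all genes), Nqo1 and Nfe2l2 (-0.67 and -0.36, adjusted p = 0.0212 and 0.0312). Nqo1 was lower under all 5 scalings and Nfe2l2 was not.

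On the antigen presentation path that the immunoproteasome serves, 4 of 9 tested genes fell and 2 rose under Wnt3a and activin A as deposited (29.5% and 19.6% of all genes). With equal summed FPKM 1 fell and 4 rose (8.07% and 49.0%). H2-K1, a class I heavy chain, read 57.7 to 58.9 FPKM in KO and 91.8 to 96.4 FPKM in control libraries (-0.69, adjusted p = 1.22e-04) and fell under all 5 scalings. H2-D1, the other heavy chain of the list, changed by -0.62 (adjusted p = 4.71e-04), and Tap1, a subunit of the peptide transporter that shares its deposited locus with Psmb9, by -0.53 (adjusted p = 0.00960). Neither H2-D1 nor Tap1 was called under all 5 scalings. Erap1, the aminopeptidase that trims peptides, rose (0.96, adjusted p = 0.0130). In LIF 2 of 9 tested genes rose (0.958% of all genes) and 0 fell. These were Irf1, a transcription factor of the interferon response, at 0.51 (adjusted p = 0.0245), and B2m, the light chain of class I, at 0.59 (adjusted p = 0.0464). With the replicate block 0 of 13153 genes were called in LIF. Irf1 fell under Wnt3a and activin A as deposited (-0.30, adjusted p = 0.0377), but not under all 5 scalings.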

How the data were processed

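RNA sequencing of 15 libraries, 3 in each of 5 groups, was used as deposited in 3 tables. Values are FPKM per gene and library, made by the authors; the processing notes name STAR 2.5.4a, Cufflinks 2.2.1 and Cuffdiff, with builds mm9 and GRCm38, without saying which applied to which file, per the submitters' processing notes. Whether the libraries keep strand is not stated. The depth behind FPKM is unknown, so no counting interval is given. The authors deposited p-values and q-values beside the FPKM in the Wnt and LIF tables, and only their q-value is used. No pair of libraries held identical values.

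Members were found by symbol, and the members and lists were chosen with earlier results of these data known. Each table was fitted alone with limma 3.58.1 (R 4.3.3, trended) on log2(FPKM + 1) over genes averaging 1 FPKM or more across its 6 libraries, with Benjamini-Hochberg adjustment over all genes and a threshold of 0.05. Fold changes on this scale understate those of low genes. The interaction used 12 libraries. The alternatives were 4 rescalings (the trend removed per library with mgcv 1.9.3), a pseudocount of 0.1, no filter, no trend, a replicate block, each library left out and, chosen after seeing the data, members alone at their locus. Values per library are given for up to 4 members per role and comparison past the threshold with the largest change and for defining subunits. Of the other lists, up to 4 genes past the threshold with the largest change are named. Scripts were tested on simulated data. The chromatin peak lists were not used here, and some genes of the other lists are not reported here. Gene spans, loci and promoters come from RefSeq (GRCm38.p6).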

Additional observations from a re-analysis of the deposited data

Results flagged for a closer look

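The effect of Dot1l loss differed between Wnt3a and activin A and LIF, by an interaction test across all genes (limma, adjusted p under 0.05), for 35 of 46 members, of which 34 were lower (20.7% of all genes) and 1 higher (17.6%). Each value is the log2 fold change under Wnt3a and activin A minus that in LIF, with FPKM as deposited. In the alpha ring it was -0.77 for Psma7, -0.60 for Psma2, -0.51 for Psma5, -0.45 for Psma4, -0.52 for Psma6, -0.47 for Psma3 and -0.32 for Psma1. In the beta ring it was -0.83 for Psmb4, -0.69 for Psmb6, -0.63 for Psmb3, -0.60 for Psmb1, -0.41 for Psmb2, -0.39 for Psmb5 and -0.38 for Psmb7. Of the inducible subunits, Psmb10 had -0.81 and Psmb8 -0.71. In the ATPase ring it was -0.68 for Psmc4, -0.47 for Psmc5, -0.43 for Psmc3 and -0.23 for Psmc2. In the rest of the cap it was -0.82 for Psmd4, -0.54 for Psmd7, -0.51 for Psmd13, -0.45 for Psmd8, -0.31 for Psmd12 and -0.27 for Psmd3, and 0.27 for Psmd11, the 1 positive value. Among chaperones it was -1.09 for Psmg3, -0.76 for Psmd9, -0.70 for Psmg2, -0.47 for Psmg1, -0.42 for Psmd5 and -0.39 for Psmg4. For the activator subunits it was -0.998 for Psme2 and -0.80 for Psme1. Of the 46 tested differences, 16 took both signs over the 5 scalings.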

How the results depend on the processing

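The count of members lower under Wnt3a and activin A was 18 with quantile normalization, 15 with equal summed FPKM, 17 with the trend on span and level removed and 21 of 24 for members alone at their locus. The count higher was 5 with median-of-ratios rescaling and 9, 14 and 7 under those 3 rescalings. The members' median was -0.49 with no filter, -0.43 with median-of-ratios rescaling, -0.12 with quantile normalization, -0.0036 with equal sums, -0.10 with the trend removed and -0.51 alone at the locus. In LIF the count lower was 0 with no filter, under the 4 rescalings, with limma without a trend, with the replicate block and alone at the locus, and the median turned to 0.033, 0.045, 0.024 and 0.063 under median-of-ratios rescaling, quantile normalization, equal sums and trend removal. Members with a lower KO effect under Wnt3a and activin A than in LIF numbered 15 with quantile normalization, 10 with equal sums and 15 with the trend removed (15.0%, 4.96% and 14.4% of all genes). Those with a higher one numbered 6, 9 and 4 under these 3 (17.1%, 42.4% and 14.7% of all genes), and 0 with no filter, without a limma trend and with the replicate block.

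Over the 5 scalings, 19 of 46 members took both signs under Wnt3a and activin A, 15 of 47 in LIF and 16 of 46 in the difference of effects. Of the members with values in every library, those that turned are these. Under Wnt3a and activin A these were, with quantile normalization, Psmc3 0.043, Psmc2 0.029 and Psmd8 0.0014; with equal sums, Psma4 0.067, Psmb8 0.18, Psmc3 0.011, Psmc2 0.12, Psmd8 0.046, Psmd7 0.051 and Psmf1 0.20; with the trend removed, Psma4 0.077, Psmb8 0.10, Psmc3 0.13, Psmd8 0.090, Psmd7 0.047 and Psme4 -0.013. In LIF they were Psmf1 0.024 with quantile normalization, and Psme1 0.026, 0.045, 0.018 and 0.080 under the 4 rescalings in the order above. The difference of effects turned to 0.036 for Psmc3, 0.096 for Psmc2 and 0.0048 for Psmb7 with quantile normalization, to 0.056 for Psmb5, 0.023 for Psmc3, 0.22 for Psmc2 and 0.071 for Psmb7 with equal sums, and to 0.078 for Psmb5, 0.083 for Psmc3 and 0.029 for Psmc2 with the trend removed. The causes were not tested.

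With 1 library left out, the count under Wnt3a and activin A was 36 to 37 lower and 2 to 3 higher, with a median of -0.55 to -0.49. In LIF it was 0 lower and 0 higher, where 1 to 27 of all 13153 genes were called, with a median of -0.080 to -0.028. For the difference it was 33 to 35 lower and 0 to 3 higher. Psmb9 was called under Wnt3a and activin A without control replicate 1. In LIF the change was -0.041 for Psmd14 without KO replicate 2 and, for Psme2, between -0.16 without control replicate 1 and 0.21 without control replicate 3. Same-numbered libraries had residual correlations of at most 0.062, and differently numbered ones reached 0.073. Residuals centred within groups of 3 libraries cannot settle whether the replicate numbers mark a pairing. With the replicate block 37 members were lower and 2 higher under Wnt3a and activin A, 0 lower and 0 higher in LIF (0 of 13153 genes in all, by limma, with 20.8% at an unadjusted p under 0.05), and 34 lower and 0 higher in the difference. Depth is unknown and 3 libraries a group limit the precision.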
